A study of Homo sapiens with 13 samples.

Results

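The S9.6 peaks called after REXO4 knockdown were compared directly with those called after RNaseH1 knockdown, without removing peaks that the control transfection also had. All deposited peaks of both lists on chromosomes 1 to 22 and X were taken, 12687 for siREXO4 and 20954 for siRNaseH1. These 33641 peaks are part of 38099 on the same chromosomes in the 3 lists of the series, the siCtrl list holding the other 4458. A peak was called paired when a peak of the other list overlapped it by 1 bp or more, and unpaired otherwise.

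The series mapped DNA-RNA hybrids by DRIP-seq in U2OS, an established human osteosarcoma line. Cells were transfected with an siRNA against REXO4 (siREXO4), against RNaseH1 (siRNaseH1) or with a control siRNA (siCtrl), and DNA sonicated to about 500 bp was immunoprecipitated with the S9.6 antibody in 3 libraries per transfection. The authors merged these 3 libraries before calling peaks, so each value below is a pooled value with no replicate error and no test between knockdowns was possible. The sources used here do not state the siRNA sequences, the time after transfection or the fall in each target, and 1 cell line was studied.

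R-loops are structures in which a nascent RNA pairs with its template DNA and leaves the other DNA strand single. They form behind RNA polymerase, often at GC-rich gene starts and near gene ends, and unresolved ones can obstruct replication. RNaseH1 degrades the RNA strand of such hybrids, while REXO4 belongs to the REXO family of predicted RNA exonucleases and is known as a nucleolar protein. S9.6 binds the hybrid without regard to its sequence, so a DRIP peak marks a stretch enriched for hybrids and not a bound protein.

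The 6 promoters printed here show the kinds of locus met below, namely a start covered in both lists (HEXIM1 and SETD5), in the siRNaseH1 list and not the other (ENPP1 and PDLIM5), in the siREXO4 list and not the other (NTSR1), and in neither although the gene carries many peaks (FLNA). Each is the 250 bases before the annotated start, from RefSeq on GRCh38.p14, printed 5′ to 3′ on the gene's own strand with runs of 4 or more G in capitals.
HEXIM1: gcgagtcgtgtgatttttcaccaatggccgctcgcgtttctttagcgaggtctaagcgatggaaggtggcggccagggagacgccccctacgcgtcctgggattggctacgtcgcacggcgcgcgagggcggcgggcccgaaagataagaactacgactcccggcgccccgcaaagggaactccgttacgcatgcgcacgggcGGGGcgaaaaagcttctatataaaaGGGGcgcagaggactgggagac
SETD5: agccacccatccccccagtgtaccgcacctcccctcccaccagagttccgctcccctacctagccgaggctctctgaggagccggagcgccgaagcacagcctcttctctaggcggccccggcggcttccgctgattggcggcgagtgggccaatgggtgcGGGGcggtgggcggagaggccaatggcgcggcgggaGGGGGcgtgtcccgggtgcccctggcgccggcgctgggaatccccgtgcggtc
ENPP1: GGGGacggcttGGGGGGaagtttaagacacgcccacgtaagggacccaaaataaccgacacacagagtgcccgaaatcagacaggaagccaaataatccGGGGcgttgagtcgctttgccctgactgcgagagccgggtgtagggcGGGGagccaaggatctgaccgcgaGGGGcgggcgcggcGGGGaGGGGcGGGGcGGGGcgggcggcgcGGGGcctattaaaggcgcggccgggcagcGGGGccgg
PDLIM5: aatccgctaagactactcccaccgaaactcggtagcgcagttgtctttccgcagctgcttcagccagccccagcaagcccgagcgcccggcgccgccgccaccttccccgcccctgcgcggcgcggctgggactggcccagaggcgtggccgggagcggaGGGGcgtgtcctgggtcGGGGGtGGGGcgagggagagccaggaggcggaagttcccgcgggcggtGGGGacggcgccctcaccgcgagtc
NTSR1: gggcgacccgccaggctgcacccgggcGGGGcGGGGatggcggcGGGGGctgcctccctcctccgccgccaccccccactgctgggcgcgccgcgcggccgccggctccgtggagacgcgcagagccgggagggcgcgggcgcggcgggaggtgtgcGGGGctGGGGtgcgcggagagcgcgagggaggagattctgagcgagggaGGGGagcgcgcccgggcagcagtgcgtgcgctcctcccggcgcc
FLNA: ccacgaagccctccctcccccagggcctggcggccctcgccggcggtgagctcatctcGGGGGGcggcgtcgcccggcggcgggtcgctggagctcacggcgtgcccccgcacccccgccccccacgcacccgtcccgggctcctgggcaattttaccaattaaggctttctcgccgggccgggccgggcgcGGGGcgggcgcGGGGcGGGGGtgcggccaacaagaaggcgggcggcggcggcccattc
They lie at chr17:45148225-45148474 (HEXIM1, plus strand), chr3:9397365-9397614 (SETD5, plus), chr6:131807770-131808019 (ENPP1, plus), chr4:94451692-94451941 (PDLIM5, plus), chr20:62708586-62708835 (NTSR1, plus) and chrX:154374635-154374884 (FLNA, minus). Runs of G numbered 11 at ENPP1, 6 at NTSR1, 4 at PDLIM5, 4 at FLNA, 2 at HEXIM1 and 2 at SETD5. The covered and the uncovered promoters are thus not told apart by these runs in the 6 sequences. GGGG on the printed strand occurred in 76.6% of 15812 promoters of protein-coding genes, and CCCC, the same motif on the other strand, in 76.8%.

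Over all 15812 promoters the same 250 bp windows were sorted by the lists that covered them. Peaks of both lists overlapped 1702 windows, siREXO4 peaks alone 493, siRNaseH1 peaks alone 581 and neither list 13036. The median GC content was 68% in windows with both, 67.2% with siREXO4 alone, 68% with siRNaseH1 alone and 60.8% with neither. The median number of CpG dinucleotides was 24, 23, 25 and 15 in the same order. Promoters covered after 1 knockdown alone therefore had the GC content and CpG number of promoters covered after both. GGGG was present in 81.4%, 85.2%, 86.7% and 75.2% of the 4 sets.

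Just over 1 in 2 siREXO4 peaks had a siRNaseH1 partner, while about 1 in 3 siRNaseH1 peaks had a siREXO4 partner. The numbers were 6873 of 12687 siREXO4 peaks (54.2%, 95% Wilson interval 53.3 to 55.0%) and 6842 of 20954 siRNaseH1 peaks (32.7%, 32.0 to 33.3%). Wilson intervals hold counting error alone, without any spread between cultures. The shares depended on the list lengths. With the siRNaseH1 list limited to as many peaks as the siREXO4 list, by lowest p-value, the shares were 44.5% and 43.6%. Paired peaks held 68.1% of the base pairs of the siREXO4 list and 46.5% of those of the siRNaseH1 list.

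Read numbers are not given, but the call limit can be read from the deposited values under the fold formula assumed for the caller. The genome-wide background recovered in this way was 1.41 fragments in siREXO4 and 1.36 in siRNaseH1, and the weakest peak over that background had 7 fragments in each. The median summit had 14 fragments in siREXO4 and 16 in siRNaseH1. A missing peak means no call at this depth, not the absence of hybrids. Peaks do not measure transcripts, so neither the knockdowns nor the cell type could be checked. REXO4 held no peak in either list, and RNASEH1 held 1 siREXO4 peak and 3 siRNaseH1 peaks, covering 578 and 1422 bp.

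Pairing was most frequent at peaks of high fold enrichment within their own list, which is the authors' own value at the summit over the local background. Of the 10% of siREXO4 peaks with the highest fold 97.6% were paired, against 39.3% of the lowest 10%. In the siRNaseH1 list these shares were 84.9% and 21.8%. There was no rise over the weaker peaks. In successive steps of 10% from the lowest, 39.3%, 35.7%, 36.4% and 35.5% of siREXO4 peaks were paired, and 21.8%, 20.0%, 18.9%, 19.8% and 18.9% of siRNaseH1 peaks. Unpaired peaks in the highest 10% numbered 31 of 1269 for siREXO4 and 317 of 2096 for siRNaseH1, so strong peaks without a partner were mainly of the siRNaseH1 list. The siREXO4 peaks were set against the longer list, and this contrast was not repeated with lists of equal length. A siCtrl peak overlapped 21.6% of paired and 6.02% of unpaired siREXO4 peaks. It overlapped 22.1% of paired and 3.78% of unpaired siRNaseH1 peaks.

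**Figure D1:**
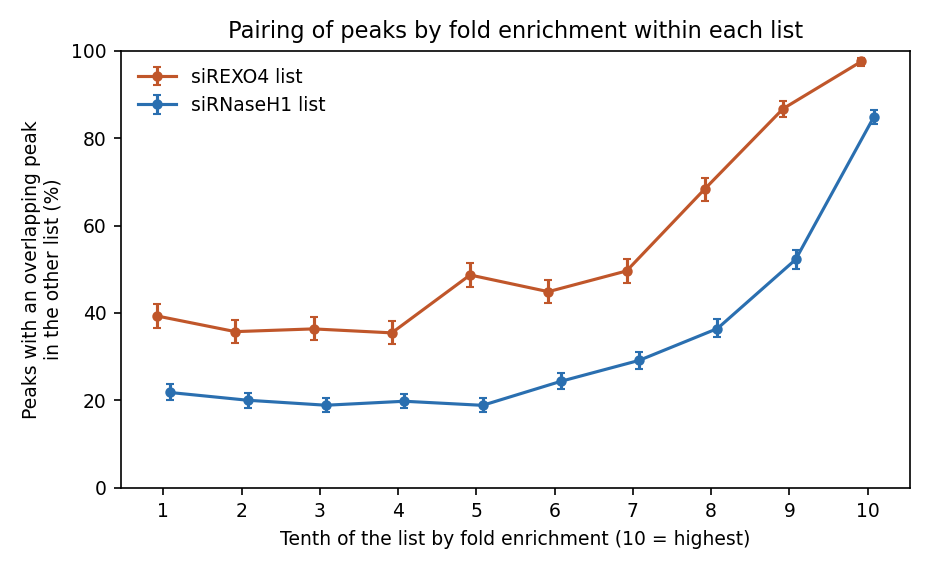
Share of peaks with an overlapping peak in the other list (y axis, %) by fold enrichment within each list, in 10 equal steps (x axis, 10 highest), with 95% Wilson intervals as bars. The siREXO4 share reaches 97.6% and the siRNaseH1 share 84.9% in the highest step.

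Most pairings joined 1 peak with 1 peak. The 7068 overlapping pairs fell into 6647 groups, of which 6282 held 1 peak of each list. In 157 groups 1 siREXO4 peak met 2 or more siRNaseH1 peaks, in 184 the reverse held, and 24 groups had 2 or more of each. The values below are for the 6282 one-to-one pairs.

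Paired summits lay close together. Their median distance was 68.5 bp (quartiles 30 and 137 bp), well under the sonicated fragment size, and 4014 pairs (63.9%) were within 100 bp. In 5403 pairs (86.0%) each summit lay inside the other peak, and in 147 pairs the summits were over 500 bp apart. Pairs in the highest 25% of both lists had a median distance of 46 bp, and pairs in the lower 50% of both had 93 bp.

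The siRNaseH1 member of a pair was more often the wider one. It was wider in 3892 pairs (62.0%) and narrower in 2381, with a median log2 width ratio, siRNaseH1 over siREXO4, of 0.14 (quartiles −0.20 and 0.55). It was at least 2 times as wide in 608 pairs, and the siREXO4 member in 221. The siREXO4 peak lay wholly inside its partner in 2177 pairs, and the siRNaseH1 peak in 1135. The median log2 ratio was 0.07 for pairs within 2 kb of a gene start, 0.35 near a gene end and 0.26 inside genes. Widening was thus least at gene starts and in pairs between genes, where the ratio was also 0.07. Coverage at the summit, in multiples of each list's background, was higher in siRNaseH1 in 4699 of 6204 pairs with recovered counts. The median log2 coverage ratio was 0.39 over all pairs, 0.33 at starts, 0.60 at ends and 0.49 inside genes. Coverage and width moved together in this order, and their part in each other was not tested.

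At gene starts the pairs had the same place relative to transcription. In 2533 pairs with a stranded gene start, the median summit lay 181 bp downstream of the start in siREXO4 and 183 bp in siRNaseH1. The shift between the partners along the gene had a median of −1 bp (quartiles −60 and 59 bp). The siRNaseH1 edge reached a median of 16 bp farther upstream and 20 bp farther downstream.

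The order of peaks by fold enrichment was shared in part. Across the 6282 pairs, which share their loci and base composition, the percentile within the siREXO4 list and that within the siRNaseH1 list had a Spearman rho of 0.51 and a Pearson r of 0.41. The median absolute difference was 16.5 percentile points. Both members were in the highest 10% in 849 pairs, and percentiles were over 50 points apart in 945. A siREXO4 peak of the highest 10% met a siRNaseH1 peak of the lower 50% in 54 pairs, and the reverse held in 189.

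The strongest pairs by the lower of their 2 percentiles included PTPRS, HEXIM1, SETD5, HFM1, CUL2, GADD45A and MYL6, and all 7 of these also had a siCtrl peak. HEXIM1, which encodes an inhibitor of the elongation factor P-TEFb, had fold enrichments of 177 in the siREXO4 list (rank 1) and 164 in the siRNaseH1 list (rank 6). Its siREXO4 peak, from 45147179 to 45150091 on chromosome 17, was 2913 bp wide against 1755 bp in siRNaseH1, with summits 22 bp apart. At SETD5, a SET domain gene, the peaks were 2151 and 2458 bp wide, with folds of 98.3 and 160 in their lists. Both peaks span the whole promoter printed above for each gene. PTPRS, a receptor tyrosine phosphatase gene, ranked 4 in both lists, with a peak inside the gene of 1197 and 1518 bp. At GADD45A, a DNA damage response gene, the peaks were 2135 and 2130 bp wide and their overlap was 98.7% of their union. The peak named for CUL2 also overlaps CREM, and that for MYL6 overlaps MYL6B.

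The most unequal widths among pairs in the highest 25% of both lists went both ways. At EGR3, an immediate early transcription factor gene, the siRNaseH1 peak was 4069 bp wide (140 fragments at the summit) and the siREXO4 peak 798 bp (24 fragments). At ZYX, the zyxin gene of focal adhesions, widths were 2260 and 621 bp in the same order. At EIF4G1, a translation initiation scaffold gene, they were 1158 and 326 bp, and at HSP90AB1, an HSP90 chaperone gene, 1575 and 446 bp. All of these except EIF4G1 had a siCtrl peak as well. The reverse held at CUL4B, a ubiquitin ligase scaffold gene, with a siREXO4 width of 1185 bp against 390 bp at 24 and 23 fragments. It also held at NDUFA6, a complex I subunit gene (1012 against 352 bp), KLC1, a kinesin light chain gene (1785 against 628 bp), and WBP1 (1907 against 692 bp), none with a siCtrl peak. The peak named for WBP1 also overlaps INO80B.

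Some pairs stood high in 1 list and low in the other. RPL38, a large ribosomal subunit gene, had a pair at its gene end at percentile 96.1 of the siRNaseH1 list (76 fragments) and 2.23 of the siREXO4 list (17 fragments). SKIDA1 stood at 92.9 and 0.38, NSMCE2, a SUMO ligase gene of the SMC5/6 complex, at 95.5 and 3.94, and TSR1, a ribosome maturation gene, at 95.4 and 3.94. In the other direction PPP2R1A, the PP2A scaffold gene, stood at percentile 96.6 in siREXO4 (58 fragments) and 6.41 in siRNaseH1 (33 fragments). Ranked by −log10 p the PPP2R1A difference, siRNaseH1 minus siREXO4, moved from −90.2 to −38.6 points, and that of UNKL from −87.6 to −46.3. USP34, a deubiquitinase gene, had near-equal counts of 25 and 23 fragments, with folds of 9.86 and 2.64 and percentiles of 90.6 and 0.58. A fold also depends on the local background, so a percentile gap need not be a difference in fragments at the summit. URM1, a gene for tRNA thiolation, had 33 and 12 fragments. The largest summit distances between pairs in the highest 10% of both lists were 887 bp at AZIN1, an antizyme inhibitor gene, 748 bp at PMAIP1, the NOXA gene, 679 bp at CHD1, a chromatin remodeller gene, and 671 bp at HNRNPDL.

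Unpaired peaks were narrow and weak relative to paired ones. The 5814 unpaired siREXO4 peaks had a median width of 314 bp against 512 bp for paired ones, and the 14112 unpaired siRNaseH1 peaks 351 bp against 598 bp. Median fold enrichments were 4.57 against 5.62 in the siREXO4 list and 4.91 against 6.41 in the siRNaseH1 list. Of unpaired siREXO4 peaks, 1398 (24.0%) had a summit at 2 or more times the lowest coverage called in the other list. Of unpaired siRNaseH1 peaks, 8195 (58.1%) did. Paired peaks showed the same order, with 67.1% of siREXO4 and 89.1% of siRNaseH1 peaks, so the difference was not particular to unpaired peaks. The 2 limits were not equal, as the lowest called coverage was 4.97 times background in siREXO4 and 5.16 in siRNaseH1. Unpaired summits had a median of 12 fragments in siREXO4 and 14 in siRNaseH1. Another peak of the other list lay within 1 kb of 577 unpaired siREXO4 and 1104 unpaired siRNaseH1 peaks. None lay within 100 kb of 1419 and 2514.

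The place of the summit differed between the 3 sets. Of paired siREXO4 peaks, 40.1% lay within 2 kb of a gene start, 30.8% inside genes and 9.62% between genes. Of unpaired siREXO4 peaks, 14.8% lay near a start, 48.4% inside genes and 23.7% between genes. Of unpaired siRNaseH1 peaks, 8.46% lay near a start, 64.2% inside genes and 11.2% between genes. Among unpaired siREXO4 peaks at 2 or more times the other list's lowest called coverage, the start share was 32.6% and the inside share 31.3%, and the matching siRNaseH1 shares were 11.5% and 59.7%. Read by place, 76.2% of siREXO4 peaks near starts were paired, 65.8% near ends, 42.9% inside genes and 32.4% between genes. For siRNaseH1 peaks these shares were 69.6%, 28.6%, 18.9% and 29.6%. Pairing was thus most frequent at gene starts in both lists, and least frequent between genes for siREXO4 and inside genes for siRNaseH1.

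**Figure D2:**
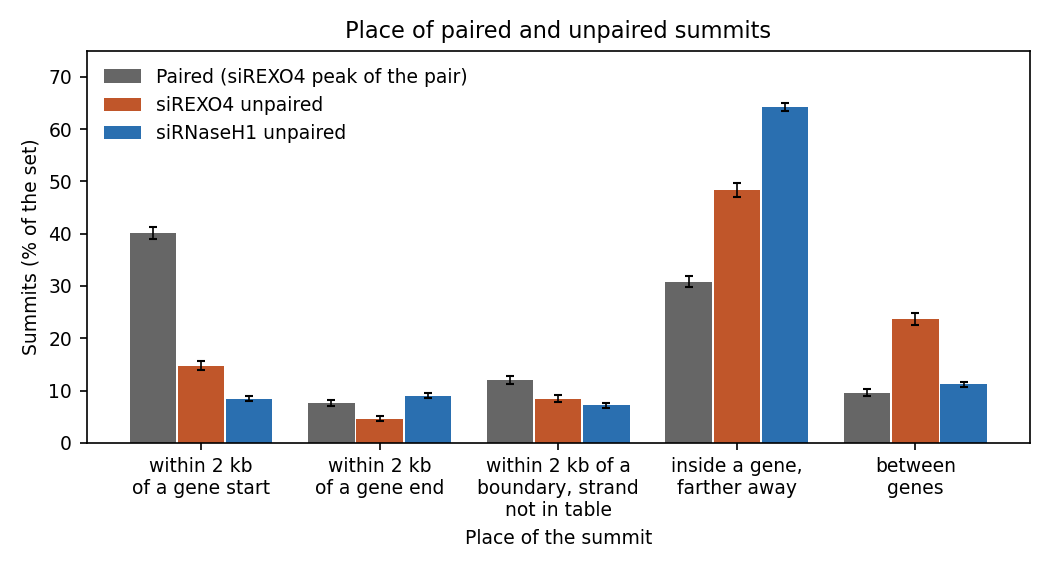
Share of summits (y axis, %) by place relative to annotated genes (x axis) for paired siREXO4 peaks and for unpaired peaks of each list, with 95% Wilson intervals as bars. Paired summits are at gene starts in 40.1%, and unpaired siRNaseH1 summits are inside genes in 64.2%.

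Along protein-coding genes with a known strand, paired summits gathered in the first 10% of the gene, with 49.0% of 3994. Unpaired summits were spread more evenly, with 22.8% of 2723 siREXO4 and 14.7% of 8873 siRNaseH1 summits in the first 10%. The last 10% of the gene held 7.14%, 8.41% and 11.7% in the same order. These genes had median spans of 35.2 kb for paired, 78.7 kb for unpaired siREXO4 and 63.2 kb for unpaired siRNaseH1 summits, and 10% of a longer gene is a longer stretch.

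**Figure D3:**
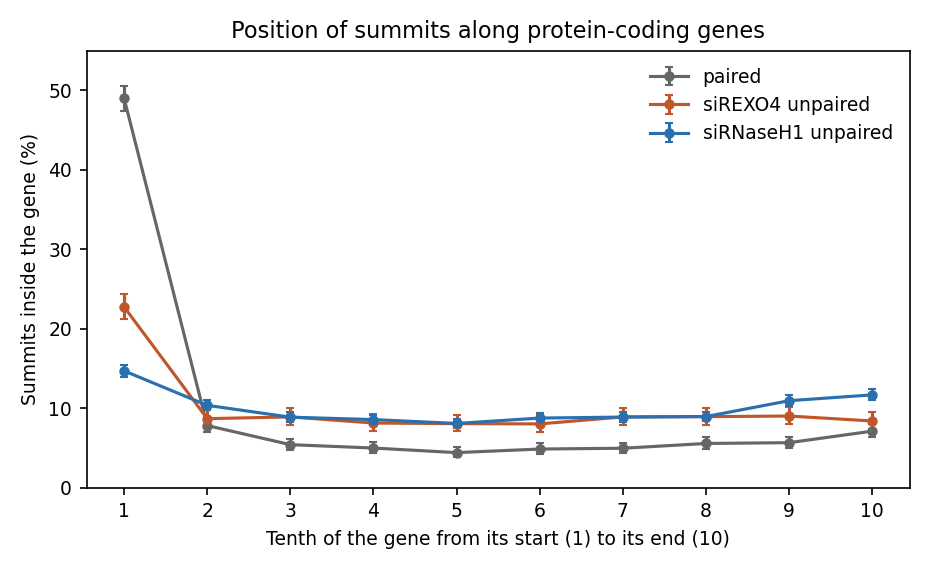
Share of summits inside protein-coding genes (y axis, %) by position from start to end in 10 equal steps (x axis), with 95% Wilson intervals as bars. The first step holds 49.0% of paired, 22.8% of unpaired siREXO4 and 14.7% of unpaired siRNaseH1 summits.

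Both lists differed in their balance by chromosome. The number of siRNaseH1 peaks per siREXO4 peak ran from 1.19 on chromosome 21 to 1.95 on chromosome 4, with 1.39 on chromosome 17 and 1.40 on chromosome 19. The paired share of siRNaseH1 peaks was 58.1% on chromosome 21, 43.0% on 19 and 26.9% on 4. The paired share of siREXO4 peaks ran from 46.3% on chromosome 18 to 62.1% on 19.

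The strongest unpaired siREXO4 peak was inside LITAF, from 11628890 to 11630182 on chromosome 16, 1293 bp wide with a fold of 19.6 and 74 fragments. The nearest siRNaseH1 peak was 38102 bp away. AP4E1, an AP-4 adaptor gene, followed with a fold of 18.1 and 46 fragments, then BLACAT1 (16.4, inside LEMD1). TNK2, the ACK1 tyrosine kinase gene (16.4), NDUFS7, a complex I subunit gene (16.2), and AZIN2 (14.4) came next. The AP4E1 and NDUFS7 peaks lay outside these genes, in their 2 kb flanks, and the NDUFS7 peak had 2 protein-coding genes in reach. The strongest unpaired siRNaseH1 peak was inside RETREG1, an ER-phagy receptor gene, from 16528123 to 16529006 on chromosome 5, with a fold of 38.4 and 109 fragments. The nearest siREXO4 peak was 182571 bp away. ENPP1, an ectonucleotide pyrophosphatase gene, had a 983 bp peak over its start (fold 28.4, 104 fragments), and PDLIM5, a PDZ and LIM domain gene, a 1081 bp peak over its start (24.8, 113 fragments). Both peaks span the whole promoter printed above. CUX2, a homeobox gene (22.7), CCT2, a chaperonin subunit gene (21.2), and PAQR3 (19.1) completed the 6. None of these 12 peaks overlapped a siCtrl peak.

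Where an unpaired peak lay at a protein-coding gene, both lists mostly marked that gene. At a protein-coding gene or its 2 kb flanks lay 3810 unpaired siREXO4 peaks (65.5%) and 11881 unpaired siRNaseH1 peaks (84.2%). In 67.8% and 68.8% of these the gene also held a peak of the other list. Of 19974 protein-coding genes, 6731 (33.7%) held a siREXO4 peak, 7824 (39.2%) a siRNaseH1 peak and 4741 (23.7%) a paired peak. Both lists marked 5502 genes, siREXO4 alone 1229 and siRNaseH1 alone 2322. Overlapping genes share peaks and were not told apart.

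Genes leaning to 1 knockdown were almost all on the siRNaseH1 side. A gene was said to lean when 1 list had at least 3 more peaks there and at least 2 times the covered base pairs. Of 2909 genes with 3 or more peaks in either list, 1218 leaned to siRNaseH1 (41.9%) and 44 to siREXO4 (1.51%). The siRNaseH1 list is longer, and the split depended on that. With siRNaseH1 numbers and base pairs scaled down to the siREXO4 list total it was 249 against 65. The siRNaseH1 side thus took 79.3% of leaning genes in place of 96.5%. The limit of 3 more peaks was kept, so siRNaseH1 needed more called peaks than siREXO4 to pass it. With lists of equal length the split was 468 against 121. Both settings lower siRNaseH1 values only, so all 44 siREXO4-leaning genes were bound to be among the 65 and among the 121. Peaks of the siRNaseH1 list at the 1218 genes were inside genes in 74.9% and unpaired in 84.3%, against 53.4% and 67.3% of the whole list. The 174 siREXO4 peaks at the 44 genes were inside genes in 72.4% and unpaired in 85.6%, against 38.9% and 45.8% of that list. A leaning gene has by its rule more peaks in 1 list, so high unpaired shares are built into both sets. These peaks were also taken for overlapping a gene or its 2 kb flanks, which raises the inside shares. Between genes lay 0.23% of those at siRNaseH1-leaning and 1.15% of those at siREXO4-leaning genes, against 10.7% and 16.1% of the whole lists. No siREXO4 peak was present at 434 of the 1218 genes, and no siRNaseH1 peak at 25 of the 44. A siCtrl peak was present at 463 and at 16. The leaning genes had a median span of 60.1 kb for siRNaseH1 and 119 kb for siREXO4, against 48.6 kb for all 2909.

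**Figure D4:**
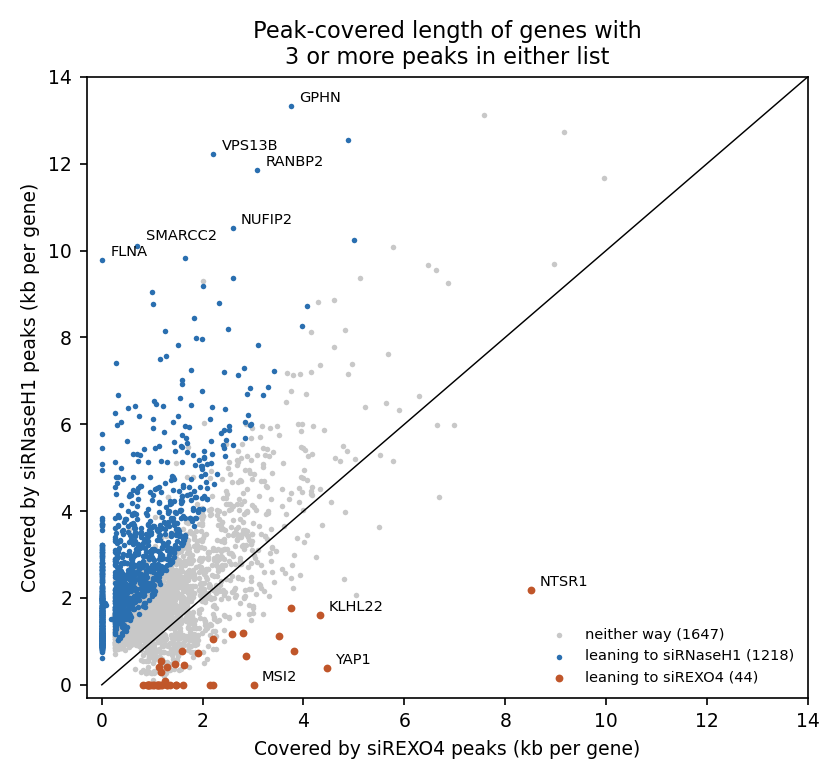
Length covered by siRNaseH1 peaks (y axis, kb per gene) against that covered by siREXO4 peaks (x axis, kb per gene) for 2909 protein-coding genes with 3 or more peaks in either list. The 1218 siRNaseH1-leaning genes lie above the diagonal and the 44 siREXO4-leaning genes below it.

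Among genes leaning to siRNaseH1, FLNA, which encodes the actin crosslinker filamin A, had no siREXO4 peak and 13 siRNaseH1 peaks covering 9790 bp of the 26.1 kb gene and its 2 kb flanks (8715 bp without the flanks). Covered base pairs include the flanks for all genes below. The 13 peaks ran from 154345766 to 154373933 on chromosome X, with folds of 4.30 to 16.5, and its promoter, printed above, was covered in neither list. SMARCC2, a SWI/SNF subunit gene, held 2 siREXO4 and 14 siRNaseH1 peaks, covering 707 and 10094 bp. NOP58, a core protein gene of box C/D snoRNPs that hosts snoRNAs in its introns, held 2 and 16 peaks, covering 1642 and 9827 bp. Both siREXO4 peaks of NOP58 were paired, and at the start its fold was 7.12 in the siREXO4 list (52 fragments) and 36.2 in the siRNaseH1 list (133 fragments). RCC1, the Ran exchange factor gene, held 3 and 11 peaks, and the snoRNA host SNHG3 overlaps its first part. NUFIP2 held 6 and 16 peaks. VPS13B (5 and 27 peaks), GPHN, the gephyrin gene (7 and 32), and RANBP2, a nucleoporin gene (9 and 22), had annotated spans of 864, 1227 and 1123 kb. Other genes lie inside such spans. With each peak given to 1 gene, the excess of siRNaseH1 base pairs fell from 9563 to 3912 bp at GPHN and from 8780 to 4263 bp at RANBP2, and was 10008 bp in both counts at VPS13B.

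Among genes leaning to siREXO4, NTSR1, the neurotensin receptor gene, held 13 siREXO4 and 6 siRNaseH1 peaks, covering 8508 and 2187 bp. All 6 siRNaseH1 peaks were paired, with folds of 3.43 to 4.46, while the siREXO4 peaks reached 9.76 and 1 of them covered the promoter printed above. YAP1, the Hippo pathway coactivator gene, held 7 and 1 peaks. At its start a 2117 bp siREXO4 peak (52 fragments) met a 392 bp siRNaseH1 peak (20 fragments). MSI2, a Musashi RNA-binding protein gene, held 4 siREXO4 peaks and no siRNaseH1 peak, the strongest at its start with a fold of 9.69. GSE1 held 6 and 2 peaks, KLHL22, a ubiquitin ligase adaptor gene, 6 and 1, PTPRN2 8 and 3, and MAPK6, the ERK3 gene, 4 and 1. ZNF511-PRAP1, a read-through gene that shares its start with ZNF511, held 3 and none. Of the 16 genes, 9 leaned the same way under every alternative tried and none changed direction. At genes leaning to siREXO4, scaling and lists of equal length could not undo the lean, since they only lower siRNaseH1 values. The exceptions were GPHN and RANBP2 with lists of equal length, KLHL22 at 3 times the base pairs, MSI2, PTPRN2 and MAPK6 at a fold of at least 5, and ZNF511-PRAP1 with each peak given to 1 gene.

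**Figure D5:**
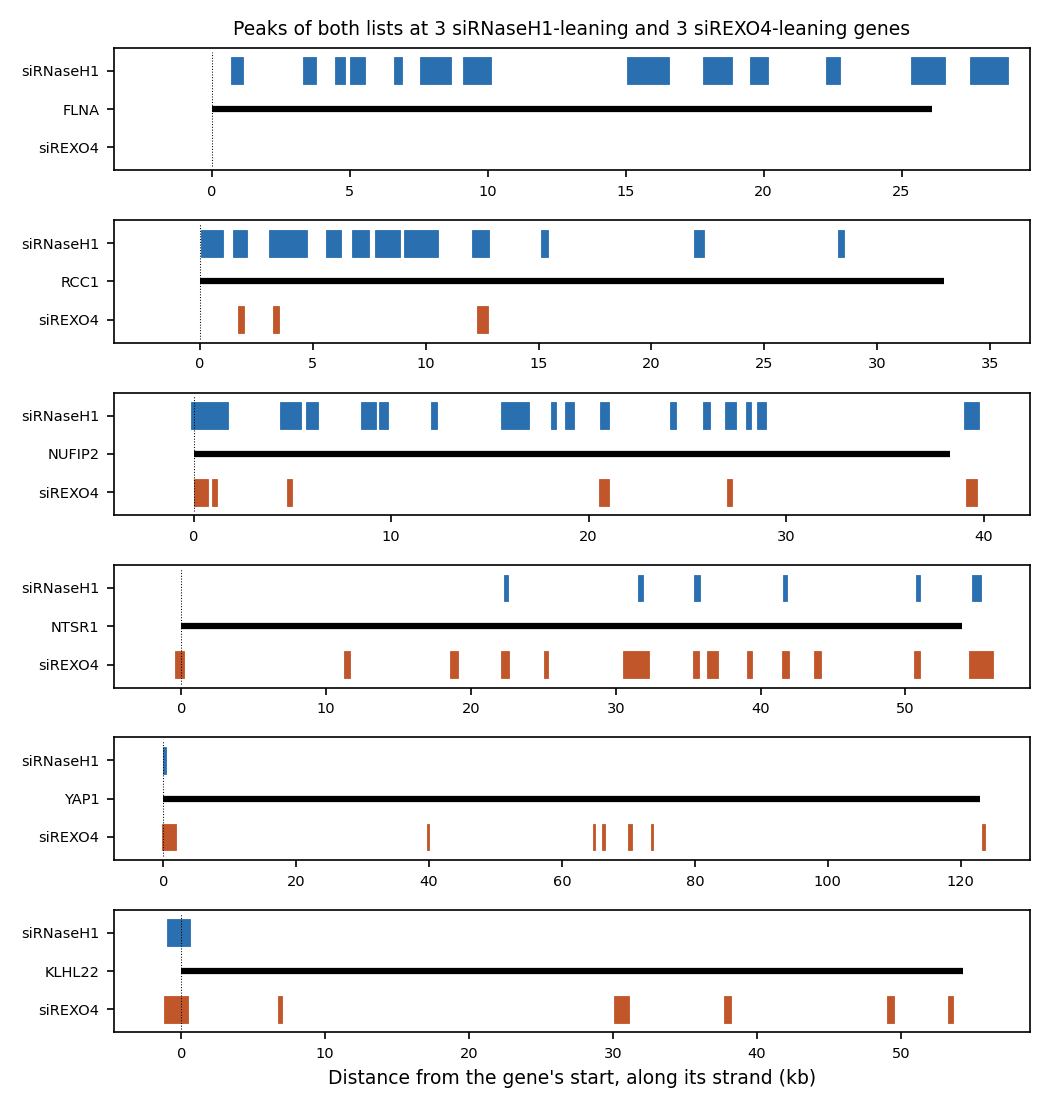
Peaks of the siREXO4 list (below each gene line) and of the siRNaseH1 list (above it) along FLNA, RCC1, NUFIP2, NTSR1, YAP1 and KLHL22, by distance from the gene's start along its strand (x axis, kb). FLNA carries 13 siRNaseH1 peaks and no siREXO4 peak, and NTSR1 carries 13 siREXO4 and 6 siRNaseH1 peaks.

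Gene lists of 16 kinds were read against the 41.9% of genes that leaned to siRNaseH1 among those with 3 or more peaks. Many genes reach 3 peaks through the siRNaseH1 list itself, so base pairs over all members are given as well, beside 6266 protein-coding genes with more siRNaseH1 and 2786 with more siREXO4 base pairs (69.2% siRNaseH1). Of ribosome biogenesis and nucleolar genes, 14 of 18 leaned to siRNaseH1, and over all members 33 had more siRNaseH1 and 2 more siREXO4 base pairs. Of snoRNA host genes 6 of 9 leaned, with 12 against 2 by base pairs. Of mitochondrial ribosomal protein genes 9 of 10 leaned, but the split by base pairs was 32 against 16 (66.7%), no higher than over all genes. NPM1, the nucleophosmin gene, had 1 siREXO4 and 10 siRNaseH1 peaks covering 1252 and 8140 bp, and NOLC1 3 and 9 peaks covering 1163 and 7507 bp. MRPS27 had 1 and 7 peaks, and GAS5, a snoRNA host, 1 and 4. With values scaled to list totals 5 of 38 ribosome biogenesis, 2 of 77 mitochondrial ribosomal and 0 of 17 snoRNA host genes leaned. Their scaled splits by base pairs were 29 against 6, 25 against 23 and 11 against 3 in that order. Over all genes 249 of 19974 leaned, and the scaled split was 4558 against 4495. Cytosolic ribosomal protein genes were below the unscaled background by this rule, with 16 of 45. Yet 71 of 79 had more siRNaseH1 than siREXO4 base pairs and 5 had fewer, or 56 and 20 when scaled. RPL34 had no siREXO4 peak and 6 siRNaseH1 peaks covering 3694 bp, and RPS19 had 4 and 8 peaks covering 2890 and 6211 bp.

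Translation factor genes leaned to siRNaseH1 in 16 of 29, with EIF3H, EIF3E and EIF3D, subunits of the initiation factor eIF3, at 3 and 13, 1 and 12, and 3 and 10 peaks. Heat shock and chaperone genes did so in 8 of 11, among them HSPD1, the mitochondrial HSP60 gene (1 and 9 peaks), and CCT2 (none and 6). Splicing factor and hnRNP genes did in 7 of 26, with TRA2A at 6 and 12 peaks and SRSF3 at 4 and 9. Replication genes did in 6 of 11, with RFC4, a clamp loader subunit gene, at none and 6 and ORC1 at 3 and 7. R-loop processing genes did in 5 of 13. DHX9, a helicase that unwinds hybrids, did not lean, with 7 and 16 peaks covering 4154 and 8133 bp, while DDX21 (2 and 7) and the exonuclease gene XRN2 (1 and 6) did. Histone lysine demethylase genes leaned in 3 of 8, with KDM1A, the LSD1 gene, at 3 and 10 peaks. Of the RNase H and REXO nuclease genes 0 of 3 leaned, RNASEH1 among them. Scaled to list totals, 5 of 37 translation factor, 3 of 15 heat shock and 0 of 40 splicing factor genes leaned to siRNaseH1. So did 1 of 36 replication, 0 of 35 R-loop processing and 1 of 19 demethylase genes, and 1 translation factor gene leaned to siREXO4. The split of splicing factor genes by base pairs was 34 against 5 unscaled and 20 against 19 scaled. Scaled splits were 24 against 12 for translation factor and 10 against 3 for heat shock genes. They were 15 against 13 for replication, 13 against 11 for R-loop processing and 8 against 9 for demethylase genes.

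Of 9 immediate early genes with 3 or more peaks none leaned either way, and the 22 genes held 47 siREXO4 and 45 siRNaseH1 peaks in sum. More base pairs were covered in siRNaseH1 at 17 of them and in siREXO4 at 4, but at 7 and 14 after scaling to list totals. These numbers were 16 and 5 with lists of equal length, so the reversal appeared under scaling and not there. The unscaled share of 81.0% siRNaseH1 was not below the 69.2% over all genes. FOSB, an AP-1 subunit gene, had 6 siREXO4 peaks covering 4600 bp, all paired, and 2 siRNaseH1 peaks covering 8863 bp. Of 20 p53 target genes, 7 had more siRNaseH1 and 10 more siREXO4 base pairs, and 1 of 7 leaned to siRNaseH1. Scaled to list totals the p53 split was 3 against 14, with 0 leaning to siRNaseH1 and 2 to siREXO4, beside 4558 against 4495 over all genes. With lists of equal length it was 5 against 11, with 1 leaning to siRNaseH1 and 3 to siREXO4, beside 4506 against 3645. MDM2, which encodes the ubiquitin ligase for p53, had 11 siREXO4 peaks covering 6697 bp and 9 siRNaseH1 peaks covering 4336 bp. BBC3, the PUMA gene, had 7 and 4 peaks covering 4802 and 2447 bp. TIGAR went the other way with 2 and 7 peaks covering 635 and 3956 bp. A siCtrl peak was found at 16 of the 22 immediate early (72.7%) and 6 of the 20 p53 target genes (30.0%), against 12.0% of all protein-coding genes.

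Common fragile site genes, whose median span was 1380 kb, included FOXP1, which leaned to siREXO4 with 3 siREXO4 peaks and no siRNaseH1 peak, and FHIT, which leaned to siRNaseH1, with 3 siRNaseH1 peaks and no siREXO4 peak. Of 22 genes of the osteoblast and mesenchymal list, 3 held a siREXO4 and 5 a siRNaseH1 peak, and of 30 genes of other tissues 6 and 4 did, against 33.7% and 39.2% of all protein-coding genes. In each of these 2 lists 1 gene had 3 or more peaks and none leaned. RUNX2, the osteoblast transcription factor gene, held 1 peak in each list, 374 bp wide in siREXO4 and 971 bp in siRNaseH1, and the 2 overlapped.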

How the data were processed

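The data were DRIP-seq peak lists of U2OS cells. The authors called each list on 3 merged S9.6 libraries of a transfection, and sample titles gave the groups. Of the tools and builds that the submitters' processing notes list without roles, MACS2 2.1.0.20150731, HISAT2 2.2.1 and hg38 bear on these lists. Which control library and which options each call used is not given in the sources used here. All have the 10-column narrowPeak layout. The fold enrichment as deposited, a ratio, is the summit value over the local background, the −log10 of p and of q were deposited for that same position, and the deposited score is a display form of the −log10 q. Apart from the recovery of fragments below, folds were ranked or filtered only within their own list. Input and IgG libraries were not analysed here.

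Fragments at each summit were recovered as the whole number that fits both the fold, read as (fragments + 1) / (background + 1), and the Poisson p. This succeeded for all 12636 siREXO4 and 20874 siRNaseH1 peaks with −log10 p below 300, within 0.001. The siCtrl list was used only to say whether a peak or gene also had a control peak.

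Gene spans came from the RefSeq table of GRCh38.p14 (hg38 has the same chromosome coordinates). Strand and start came from its promoter table, which holds 15812 of 19974 protein-coding genes. A gene held a peak that overlapped it or its 2 kb flanks. A summit was placed, in order, within 2 kb of a start, of an end, of a boundary of unknown strand, inside a gene or between genes. Where 1 annotated gene overlaps another, a peak counted for both. A percentile is a peak's rank by fold, counted from the lowest, as a share of the list length, and tied folds take their mean rank.

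Named genes were protein-coding, apart from snoRNA hosts of the gene lists. For pairs they were the 8 with the best lower percentile, the 4 most unequal widths each way in the highest 25% of both lists, the 4 largest percentile differences each way and the 4 largest summit distances in the highest 10%. For unpaired peaks they were the 6 highest folds per list, and for leaning genes the 8 largest differences in covered base pairs per direction. Up to 3 members per gene list, REXO4 and RNASEH1 were added. Of the genes that the rule names, 2 are not reported here. The 16 gene lists hold 525 entries, all found. The comparison, the gene lists and the rules were chosen with earlier results of these data known.

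Alternatives were other overlap, q-value, fold and window limits, lists of equal length, scaling to list totals, no flanks and 3 times the base pairs. The other 3, namely unpaired peaks at 2 times the other list's lowest called coverage, spans under 100 kb and each peak given to 1 gene, were chosen after seeing the data. The code, tested on simulated data, ran in Python 3.11.15 with pandas 2.3.3, NumPy 2.4.6, SciPy 1.17.1 and, for plots, Matplotlib 3.10.9.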

Additional observations from a re-analysis of the deposited data

Results flagged for a closer look

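Peaks on alternative, random and unplaced contigs were left out of every comparison above. There were 463 such siREXO4 peaks and 614 such siRNaseH1 peaks, against 164 for siCtrl. As shares of each full list these were 3.52%, 2.85% and 3.55%, so the higher numbers went with the longer lists and neither knockdown list held a larger share than the control list. Alternative contigs repeat sequence of the main chromosomes, while random and unplaced contigs need not. These kinds of contig were not counted apart, and which copy the fragments came from was not tested.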

How the results depend on the processing

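No paired analysis was possible because each transfection has 1 merged peak list and the columns carry no replicate number; for the same reason no replicate could be left out. The paired shares of siREXO4 and siRNaseH1 peaks were 52.0% and 31.3% at an overlap of 50% of the narrower peak, 40.9% and 24.8% at a reciprocal overlap of 50%, 58.0% and 29.7% at a fold of at least 5 (3443 and 3412 peaks), and 44.5% and 43.6% with lists of equal length. The median log2 width ratio was 0.10 at reciprocal overlap and 0.18 with equal lists, and the median summit distance was 61 bp and 64 bp there and 74 bp over all overlapping pairs. Ranked by −log10 p, the median absolute percentile difference was 14.6.

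Unpaired siREXO4 peaks numbered 1661 at a fold of at least 5 and 1398 at 2 times the other list's lowest called coverage, and unpaired siRNaseH1 peaks 6585 and 8195. The share of unpaired siREXO4 peaks near a start was 13.7% with no other peak within 1 kb, 19.6% at a fold of at least 5, 32.6% at 2 times the coverage and 11.9% with a 1 kb window. Inside genes it was 43.0%, 31.3% and 54.1% under the last 3, and between genes 19.5% and 26.7% under the last 2. For unpaired siRNaseH1 peaks the start share was 7.43% with no other peak within 1 kb, 11.5% at 2 times the coverage and 5.58% with a 1 kb window. The inside share was 65.8%, 65.1% (fold), 59.7% and 71.4%, and the share between genes 9.93% (fold), 9.71% and 13.9%. Under each of these the inside share was higher, and the start and between-gene shares lower, for siRNaseH1 than for siREXO4.

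Genes leaning to siRNaseH1 numbered 249 when scaled to list totals, 468 with equal lists and 703 at a fold of at least 5. Those leaning to siREXO4 numbered 121 with equal lists, 18 at a fold of at least 5 and 20 among spans under 100 kb. Scaling to list totals turned the balance of immediate early genes from 13 more members with siRNaseH1 base pairs in excess to −7, and that of histone lysine demethylase genes from 5 to −1; the cause was not tested. Lists of merged libraries without read numbers limit all of these values, since the number of reads, the efficiency of the IP and the effect of the knockdown cannot be told apart.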
